A study of Mus musculus with 8 samples.

Results

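The 46 genes described here encode the working parts of the lysosome and of autophagy: hydrolases and their lumenal partners, lysosomal membrane proteins, subunits of the proton pump, the transcription factors Tfeb and Tfe3, and the autophagy machinery. They were taken by name from the 56980 gene IDs of a mouse RNA-seq count table, and all 46 passed the filter on low counts. By role they were 17 hydrolases, 3 lumenal cofactors and carriers, 6 lysosomal membrane proteins, 6 proton pump genes, 2 transcription factors and 12 autophagy genes. RNA came from PDGFRa+ oligodendrocyte progenitor cells, the dividing precursors of myelinating cells, purified by immunopanning from cortices of WT C57BL/6 pups of either sex at postnatal days 6 to 8 and cultured with 10 ng/mL PDGF-AA. Both groups shared this mitogen throughout and had been expanded with 20 ng/mL bFGF, which was washed out beforehand. The HG group (4 libraries) stayed at 25 mM glucose, and the LG group (4 libraries) was diluted in steps that reached 12.5 mM (day 1), 5 mM (day 2) and finally 2.5 mM (day 3), with harvest of both on day 5. The cells were purified cultures outside the brain, and the control itself is a high glucose medium. Libraries of the same number carry the same preparation code in HG and LG, and numbers 1 and 2 share 1 code, so n = 4 counts libraries and p-values over them treat numbers 1 and 2 as separate.

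Total counts ran from 50864130 to 65733928 per library, with p = 0.543 for a difference between the groups (two-sided exact permutation test). The progenitor label was met: the 8 progenitor markers, among them Pdgfra and Olig2, summed to 8606 to 11136 CPM (counts scaled to a common library size) in HG and 8737 to 10381 CPM in LG. Microglia, which are rich in lysosomal transcripts, were close to absent, with 12 markers summing to 1.33 to 1.92 CPM in HG and 1.33 to 1.801 CPM in LG and with C1qc, Cx3cr1, Trem2 and Itgam at 0 in every library. The 10 astrocyte markers summed to 785 to 1845 CPM in HG and 689 to 1988 CPM in LG. This sum was high in libraries 1 and 2 and low in libraries 3 and 4 of both groups. Sox9, Slc1a3 and Aldoc held most of it in libraries 3 and 4 (318, 231 and 220 CPM in HG replicate 3). Sox9 was at 284 CPM in HG replicate 1. In HG replicates 1 and 3, Aqp4 was at 108 and 4.76 CPM, Gfap at 64.9 and 3.48 and Gja1 at 88.0 and 3.97. With the replicate block 7 of the 10 were above 0 and 3 below, against 50.4% of all genes above 0. Aldh1l1 and Fgfr3 were at 0.34 each and higher in LG in each pair. The 8 neuron markers summed to 1083 to 1339 CPM in HG and 1020 to 1138 CPM in LG, and the 7 endothelial markers to 5.06 to 6.70 CPM in HG and 6.04 to 7.41 CPM in LG, with Cldn5 and Cdh5 at 0. Most of the neuron sum was Map2 (mean 901 CPM in HG and 848 CPM in LG) and Gap43 (212 and 185 CPM). Every other neuron marker had means of at most 36.9 CPM (Tubb3 in LG). Rbfox3 was at 1.77 and 2.06 CPM, and Stmn2 did not pass the filter on low counts. The 10 oligodendrocyte markers summed to 915 to 1519 CPM in HG and 997 to 1709 CPM in LG, and Myrf, the transcription factor of myelin genes, rose in LG by 0.60 on the log2 scale with the replicate number as a block (SE 0.067, edgeR adjusted p = 0.00871). The part of these cells in the differences described here was not tested, and in bulk RNA fewer cells of a type cannot be told apart from less RNA per cell.

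Lysosomes are acidic organelles in which hydrolases break down proteins, glycans and lipids. The vacuolar proton pump, a membrane sector (V0) that carries protons and a cytosolic sector (V1) that splits ATP, keeps them acidic, and autophagy brings them cytoplasm enclosed in double membranes. Tfeb and Tfe3 bind a short E-box element in the promoters of many lysosomal genes. They move to the nucleus when nutrients are short and mTORC1 activity falls. In glia these organelles also handle myelin lipids and membrane turnover.

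Every member had a higher estimate in LG than in HG, and no single member passed the test. The log2 fold change, LG against HG, was above 0 in 46 of 46 members, against 51.4% of the 18905 genes tested, and the median was 0.15 over the members against 0.01 over all genes tested. The differences were small: the median corresponds to counts 11.02% higher, the lowest to 1.496% (Atg5) and the highest to 20.1% (Ctsf). In the unpaired fit with edgeR's quasi-likelihood test 0 members passed (lowest Benjamini-Hochberg adjusted p = 0.9999), where 0% of all genes passed, and DESeq2 (0.037% of all genes) and limma-voom (0%) also called 0 members. At an unadjusted p under 0.05, 6 members were higher in LG by edgeR, against 1.26% of all genes, and 0 lower, against 2.68%. DESeq2 gave 9 higher, against 1.58%, and limma-voom 5, against 1.29%. The count of 6 was 1 without LG replicate 3, 4 without LG replicate 1, 9 without HG replicate 4 and 12 without LG replicate 4. Without HG replicate 1, the library with the lowest summed level, 43 members were above 0 and the median was 0.11.

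Pairing the libraries by replicate number narrowed the errors without a call. With the block all 46 members were again above 0, against 50.4% of all genes, 0 passed, against 0.418%, and the lowest adjusted p was 0.130, for Man2b1. At an unadjusted p under 0.05, 22 members were higher in LG and 0 lower, against 6.02% of all genes higher and 7.43% lower. Leaving out pair 1, 2, 3 or 4 turned these 22 into 9, 14, 14 and 29. With libraries 1 and 2 summed as 1 preparation, an alternative chosen after seeing the data, 14 members were higher at that level and 0 passed. Without pair 4, Gabarap passed at an edgeR adjusted p of 0.0406, and it was the only member to pass in any of the 24 alternatives. In 21 members the LG library was the higher one in 4 of 4 pairs, against 10.8% of all genes, in 19 members it was so in 3 pairs and in 6 members in 2 pairs. No member was lower in 4 of 4 pairs, against 11% of all genes, and with the GC and length trend of each library removed 19 members were higher in 4 of 4, against 12%.

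**Figure D1:**
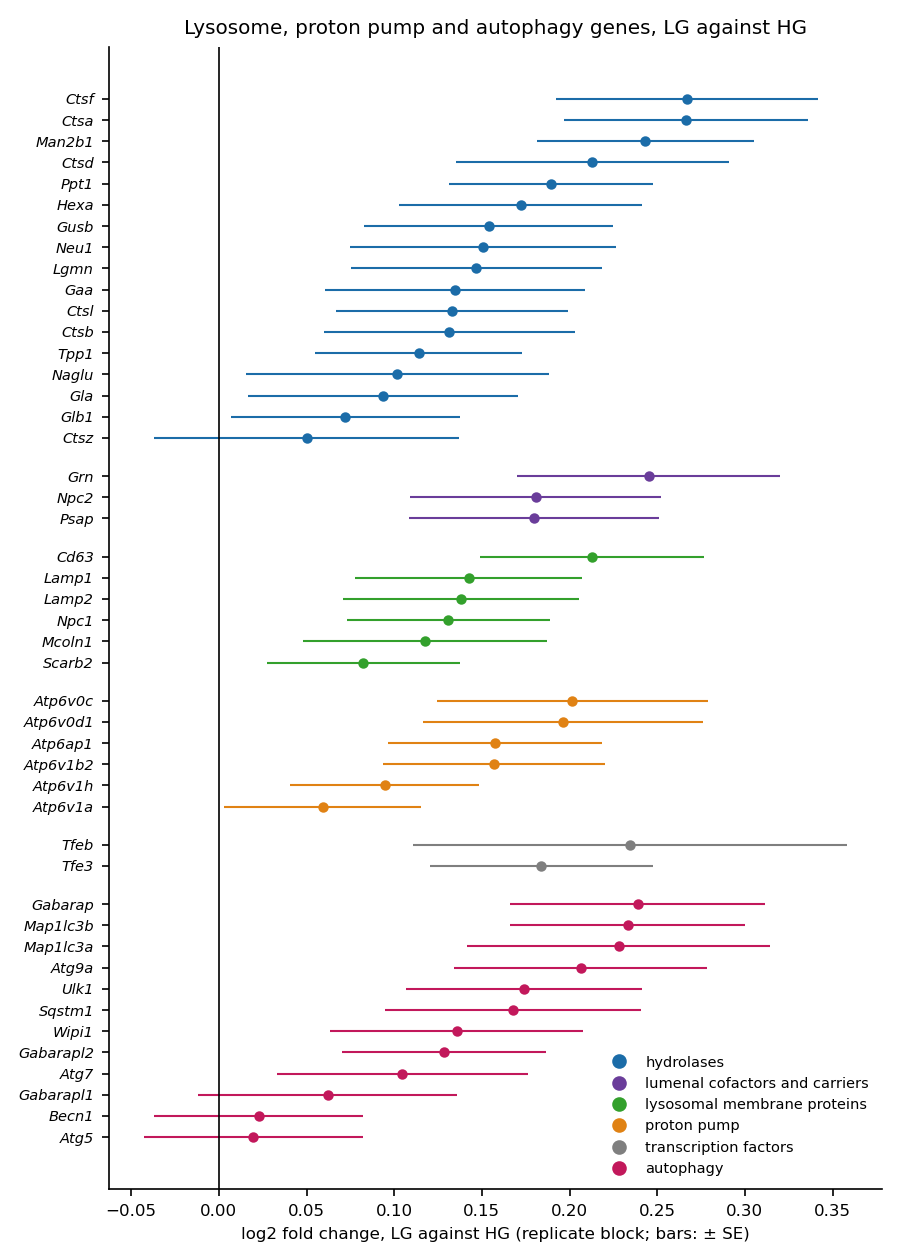
Log2 fold change of each of the 46 members, LG against HG, from the edgeR fit with the replicate block, grouped by role and ordered within it. Points are estimates and bars are ± 1 SE. All points lie above 0, from 0.02 for Atg5 to 0.27 for Ctsf and Ctsa, and no member passed the adjusted threshold.

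Summed over the members, counts were 4766, 5260, 5287 and 5327 CPM in HG replicates 1 to 4 and 5931, 5678, 5979 and 5447 CPM in LG replicates 1 to 4. The mean was 5160 ± 264 CPM for HG libraries and 5759 ± 246 CPM for LG libraries (SD, n = 4). HG replicate 1 was the lowest library of the 8 and LG replicate 4 the lowest of LG, and the groups did not overlap. HG replicate 1 was the lowest HG library for 30 of the 46 members.

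The size of the difference varied from pair to pair. The median of the members' log2 CPM difference, LG minus HG, was 0.31 in pair 1, 0.11 in pair 2, 0.18 in pair 3 and 0.03 in pair 4, against 0.00, 0.01, 0.00 and -0.01 over all genes tested. Members higher in LG numbered 45 in pair 1, 40 in pair 2, 38 in pair 3 and 30 in pair 4. Over the 18905 genes tested the counts were 9456, 9732, 9591 and 9106. In pair 4 the medians were 0.11 for transcription factors, 0.10 for membrane proteins and 0.05 for the pump. They were 0.04 for hydrolases, 0.00 for lumenal genes and -0.01 for autophagy genes. Autophagy genes were higher in LG in 4 of 12 members there, against 11 of the 12 membrane and pump genes. In pairs 1, 2 and 3 the counts were 11, 11 and 9 for autophagy and 12, 11 and 10 for membrane and pump genes. Outside the members, 20 of 34 autophagy genes were higher in pair 4, with 17 of 18 membrane and 9 of 14 pump genes. These counts are a description, and the roles were not tested against each other.

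**Figure D2:**
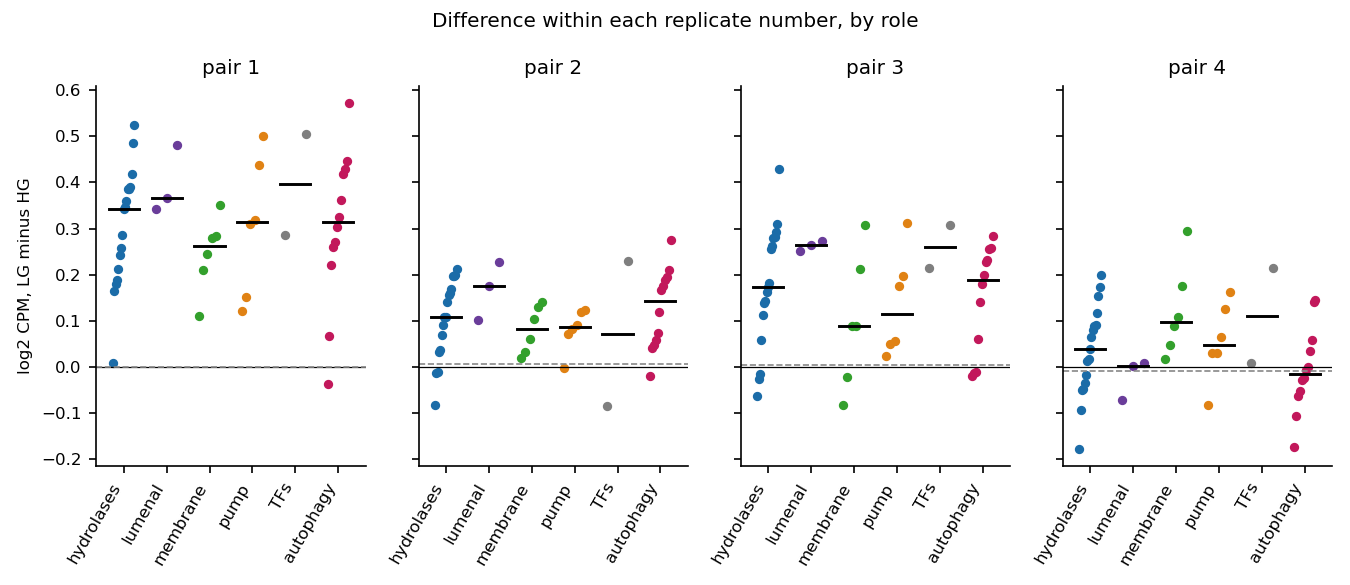
Difference in log2 CPM, LG minus HG, within each replicate number, for the members of each role (coloured points; lumenal: lumenal cofactors and carriers; TFs: transcription factors). Black bars are the medians of a role and the dashed line is the median of all genes tested. Over all members the median is 0.31 in pair 1 and 0.03 in pair 4.

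The hydrolases had log2 fold changes from 0.04 to 0.26 without the block, all 17 above 0, with a median of 0.15. They are proteases such as the cathepsins, glycosidases that trim glycans and glycolipids, and the thioesterase Ppt1. Ctsa (ENSMUSG00000017760, GRCm38 chromosome 2, 164832873 to 164841032) encodes cathepsin A, a carboxypeptidase that also protects the enzymes of Glb1 and Neu1. It was at 58.8, 70.0, 74.4 and 75.8 CPM in HG replicates 1 to 4 and at 82.4, 80.3, 91.1 and 80.7 CPM in LG replicates 1 to 4. All LG libraries lay above all HG libraries, with means of 69.7 ± 7.68 and 83.6 ± 5.08 CPM (SD, n = 4). Its log2 fold change was 0.26 without the block (SE 0.091) and 0.27 with it (SE 0.070, edgeR adjusted p = 0.139).

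Man2b1 encodes the lysosomal alpha-mannosidase. Its counts were 35.3, 41.7, 41.4 and 43.9 CPM in HG and 45.3, 47.9, 49.7 and 48.8 CPM in LG. The groups did not overlap here either, and the log2 fold change with the block was 0.24 (SE 0.062, edgeR adjusted p = 0.130). Ctsd, the aspartic protease cathepsin D, had the highest level per length of the hydrolases, at 46.6 RPKM (CPM divided by exon length in kilobases), followed by Ctsb at 33.1 RPKM. Ctsd was at 91.4, 113, 99.8 and 102 CPM in HG and at 131, 124, 113 and 103 CPM in LG, so that the groups overlapped although LG was higher in each pair (log2 fold change 0.21 with the block, SE 0.078). Exons of Ctsd share 34.4% of their length with Gm49369 on the same strand, so its counts are uncertain. Of the rest, Ctsf (0.27), Ppt1 (0.19), Hexa (0.17), Gusb (0.15) and Neu1 (0.15) lay highest with the block, and Glb1 (0.07) and Ctsz (0.05) lowest. Gusb, Ctsa and Man2b1 were the hydrolases whose groups did not overlap, and with Grn they made 4 such members in all, against 1.07% of all genes, while 0 members were parted in the other direction, against 1.82%.

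Several of these promoters hold CACGTG, the core letters of the E-box that Tfeb and Tfe3 bind. The sequences before the start are shown for Ctsa, Ctsd and Lamp1, members described library by library whose 250 bases before the start hold it. Atp6v0d1 was also described library by library, but its CACGTG crosses the start, and its sequence is not shown. Each run is the 250 bases before the start of the RefSeq gene on its own strand (GRCm38.p6), with the letters CACGTG in capitals. In GENCODE M21, which gave the gene positions here, Ctsa starts at 164832873 and Ctsd, on the minus strand, at 142388038. The Ctsa run therefore lies inside the annotated gene, as does most of the Ctsd run.
Ctsa, chr2:164833523-164833772, plus strand: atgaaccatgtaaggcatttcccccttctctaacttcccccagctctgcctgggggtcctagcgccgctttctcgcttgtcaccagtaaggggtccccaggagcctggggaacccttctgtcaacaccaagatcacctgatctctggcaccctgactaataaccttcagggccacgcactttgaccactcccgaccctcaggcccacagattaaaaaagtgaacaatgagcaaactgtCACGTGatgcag
Ctsd, chr7:142387828-142388077, minus strand: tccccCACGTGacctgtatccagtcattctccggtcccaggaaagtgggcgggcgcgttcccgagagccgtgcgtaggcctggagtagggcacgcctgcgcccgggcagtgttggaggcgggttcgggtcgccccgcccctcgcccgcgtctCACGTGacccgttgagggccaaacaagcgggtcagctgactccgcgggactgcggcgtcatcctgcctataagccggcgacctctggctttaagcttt
Lamp1, chr8:13158911-13159160, plus strand: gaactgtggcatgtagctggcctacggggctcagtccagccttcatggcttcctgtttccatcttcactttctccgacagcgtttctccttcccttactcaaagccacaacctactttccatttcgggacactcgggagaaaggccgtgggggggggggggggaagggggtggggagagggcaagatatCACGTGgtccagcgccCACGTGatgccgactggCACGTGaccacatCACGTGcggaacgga
Only Ctsa was called for by the rule for showing promoters, and Ctsd and Lamp1 were added after their values were seen. Over windows from 250 bases before to 50 after the start, which RefSeq gave for 40 of the 46 members, CACGTG, which reads the same on both strands, was found in 15 members (37.5%), against 11.2% of the 11656 tested genes with such a window. By role these were 9 of 16 hydrolases, 2 of 5 membrane proteins, 2 of 4 pump genes, 2 of 10 autophagy genes and none of the 3 lumenal genes or of the transcription factors. Single sites with their flanks were gtCACGTGat at 12 bases before the start of Ctsa, ctCACGTGac from base 6 after it, gtCACGTGag across the start of Atp6v0d1 and gtCACGTGtt in Mcoln1. The longer form GTCACGTG, searched on both strands and overlapping CACGTG, was in 10 members (25.0%) against 4.44% of those genes. TCACGTGA, which also overlaps it, was in 6 members (15.0%) against 2.02%, and the longest form, with GT before CACGTG and AC after it, in 0 members against 0.721%. A match is a description of letters and not a bound site. Members with CACGTG had a median log2 fold change of 0.12 (n = 15) and members without it 0.17 (n = 25), a difference that was not tested.

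The lumenal cofactors and carriers were all above 0 as well. Psap, which encodes prosaposin, the precursor of the saposins that help enzymes reach sphingolipids, was the most abundant member per length, at 223 RPKM. It was at 562, 650, 522 and 554 CPM in HG and at 713, 698, 627 and 558 CPM in LG, higher in LG in each pair, with overlapping groups and a log2 fold change of 0.18 (SE 0.071) with the block. Grn (ENSMUSG00000034708, chromosome 11, 102430315 to 102437048) encodes progranulin, a secreted glycoprotein that is cut into granulins in the lysosome. It was at 47.2, 60.0, 59.4 and 64.1 CPM in HG and at 65.9, 70.2, 71.8 and 64.2 CPM in LG. The groups were parted by a narrow margin, since HG replicate 4 and LG replicate 4 were almost equal, and the log2 fold change was 0.25 with the block (SE 0.075, edgeR adjusted p = 0.200). Npc2, the lumenal cholesterol carrier, was at 0.18.

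The lysosomal membrane proteins had a median of 0.13 without the block, the smallest of the roles there, while with the block and GC and length offsets the autophagy genes had the smallest, 0.12, beside 0.13 for membrane proteins. Lamp1 (ENSMUSG00000031447, chromosome 8, 13159161 to 13175338), the main glycoprotein of the lysosomal membrane, had 139 RPKM, the second highest level of all members. Its counts were 359, 378, 333 and 345 CPM in HG and 435, 395, 385 and 349 CPM in LG. LG was the higher library in each pair while LG replicate 4 lay within the HG range, and the log2 fold change was 0.14 (SE 0.065) with the block. Lamp2, its relative that takes part in chaperone-mediated autophagy, was at 0.14, or 0.29 with GC and length offsets as well, and Mcoln1, the calcium channel of the organelle, and Scarb2, the receptor that carries glucocerebrosidase, were at 0.12 and 0.08.

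Cd63, a tetraspanin of late endosomes and lysosomes, was at 113, 128, 86.8 and 87.8 CPM in HG and at 144, 138, 107 and 93.3 CPM in LG. The replicate numbers differed more than the glucose groups, and with the block its log2 fold change was 0.21 (SE 0.064), where the fit without the block gave 0.22 (SE 0.17). Npc1, the membrane exporter of cholesterol, showed the opposite order of numbers, at 159, 184, 218 and 236 CPM in HG and 188, 203, 231 and 244 CPM in LG. LG was higher in each pair, and the log2 fold change with the block was 0.13 (SE 0.058, edgeR adjusted p = 0.358).

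**Figure D3:**
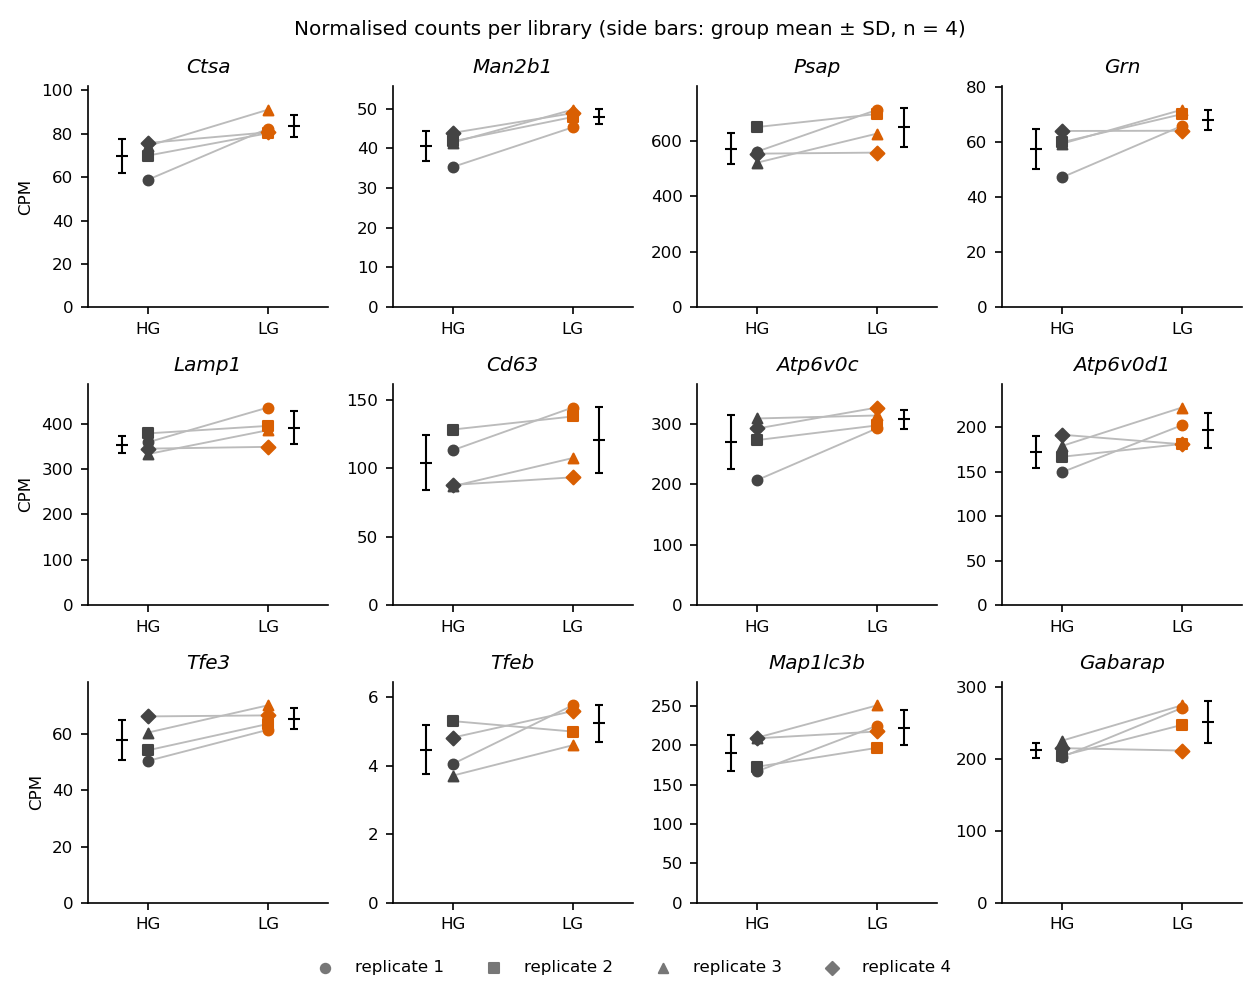
Normalised counts (CPM) in each library for 12 members, with HG in grey and LG in orange. Marker shapes give the replicate number, grey lines join the same number, and side bars are the group mean ± SD (n = 4). The lines of Ctsa and Man2b1 slope up in every pair, and the replicate 4 lines of Gabarap and Atp6v0d1 slope down.

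All 6 proton pump genes lay above 0, with a median of 0.15. Atp6v0c (ENSMUSG00000024121, chromosome 17, 24163866 to 24169702) encodes the proteolipid c of the V0 ring. It was at 207, 273, 309 and 292 CPM in HG and at 293, 297, 314 and 327 CPM in LG, with HG replicate 1 far below the rest. The log2 fold change was 0.19 without the block (SE 0.12), 0.20 with it (SE 0.077), and 0.08 without HG replicate 1 and without the block. Its counts are uncertain, because 2 pseudogene copies with up to 99.8% identity held counts equal to 25.0% of its own. Atp6v0d1, the V0 subunit d, had the highest level per length of the pump, at 103 RPKM.

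Atp6v0d1 was at 150, 167, 179 and 192 CPM in HG and at 203, 181, 223 and 181 CPM in LG, so pair 4 went the other way, and its log2 fold change with the block was 0.20 (SE 0.080). Atp6ap1, an accessory subunit needed to assemble V0, was at 111, 136, 144 and 143 CPM in HG and at 138, 143, 162 and 149 CPM in LG. Its groups overlapped while each pair was higher in LG (0.16, SE 0.061). The V1 subunits Atp6v1b2, Atp6v1h and Atp6v1a were at 0.16, 0.09 and 0.06 with the block. With GC and length offsets as well, Atp6v1h was at 0.27 and Atp6v1a at 0.12, against 0.18 for Atp6v0c and 0.17 for Atp6v0d1, so the order of the pump genes depended on the offsets.

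The transcription factors were expressed at unequal levels, with Tfe3 (ENSMUSG00000000134, chromosome X, 7762560 to 7775202) at 6.66 RPKM and Tfeb at 0.856 RPKM. Tfe3 was at 50.5, 54.3, 60.6 and 66.3 CPM in HG and at 61.6, 63.6, 70.3 and 66.7 CPM in LG. LG was higher in each pair, by 0.01 on the log2 scale in pair 4, and the fit with the block gave 0.18 (SE 0.064). Tfeb was at 4.05, 5.30, 3.71 and 4.82 CPM in HG and at 5.76, 5.00, 4.60 and 5.59 CPM in LG, with overlapping groups, a lower value in LG in pair 2 and a log2 fold change of 0.23 (SE 0.12). RNA levels say nothing of where these proteins sit in the cell.

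The 12 autophagy genes spread from 0.02 to 0.24 with a median of 0.15, with Gabarap and Map1lc3b among the highest and Becn1 and Atg5 lowest in the fits without GC and length offsets. With the block and these offsets Becn1 and Atg5 were at 0.08 each, and Gabarapl1 (0.04) and Atg7 (0.07) were the lowest. Gabarap (ENSMUSG00000018567, chromosome 11, 69991143 to 69994951) encodes an Atg8 family protein that is joined to lipid on the autophagosome, and had 125 RPKM. It was at 202, 204, 225 and 215 CPM in HG and at 270, 247, 274 and 211 CPM in LG. The first 3 LG libraries lay above all HG libraries and LG replicate 4 lay within them, and the log2 fold change was 0.24 with the block (SE 0.073, edgeR adjusted p = 0.196). Map1lc3b, which encodes the autophagosome marker LC3B, was at 167, 173, 210 and 209 CPM in HG and at 225, 197, 251 and 218 CPM in LG.

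LG was higher for Map1lc3b in each pair, although LG replicate 2 lay below HG replicates 3 and 4 (0.23, SE 0.067, edgeR adjusted p = 0.172). Of the other Atg8 family genes, Map1lc3a was at 0.23, Gabarapl2 at 0.13 and Gabarapl1 at 0.06 with the block, and Gabarapl2 has 3 pseudogene copies with counts equal to 9.73% of its own. Sqstm1, the cargo receptor p62, was at 0.17, Atg9a, the lipid scramblase of early autophagosomal membranes, at 0.21 and Ulk1, the kinase that starts the process, at 0.17. Wipi1, which binds phosphoinositides, was at 0.14 and Atg7, which activates the Atg8 proteins, at 0.10. Becn1, the lipid kinase subunit Beclin 1, and Atg5, part of the ligase that lipidates Atg8 proteins, were at 0.02 each, and Becn1 had 62.8 ± 5.23 CPM in HG against 63.8 ± 6.02 CPM in LG libraries (SD, n = 4). Without the block, leaving out LG replicate 1 put Wipi1 at -0.05 and Atg5 at -0.02, and leaving out LG replicate 3 put Gabarapl1 and Becn1 at -0.02 each. Exons of Atg9a share 31.8% of their length with Gm29253 on the same strand, and those of Becn1 share 43.9% with Cntd1 on the opposite strand. In all, 15 members share exon bases with a gene on the opposite strand, so their counts are uncertain where the counting ignored strand.

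Replicate numbers differed more than glucose groups in 26 of the 46 members, against 66.4% of all genes tested, taking the mean log2 CPM of replicates 3 and 4 minus that of replicates 1 and 2 beside LG minus HG. Wipi1 stood farthest, at 33.6, 32.7, 19.1 and 20.1 CPM in HG and 40.6, 33.7, 22.4 and 20.1 CPM in LG, a difference between numbers of -0.78. Cd63 (-0.48) and Lamp2 (-0.34) were also lower in replicates 3 and 4, and in these 3 members no library of numbers 3 and 4 reached those of 1 and 2, against 11.2% of all genes. In 7 members, among them Npc1 (0.34) and Naglu (0.37), all libraries of numbers 3 and 4 lay above the others, against 11.9% of all genes, so such splits were common across the transcriptome. The summed astrocyte markers divided the libraries along the same line, and their part in these differences was not tested.

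**Figure D4:**
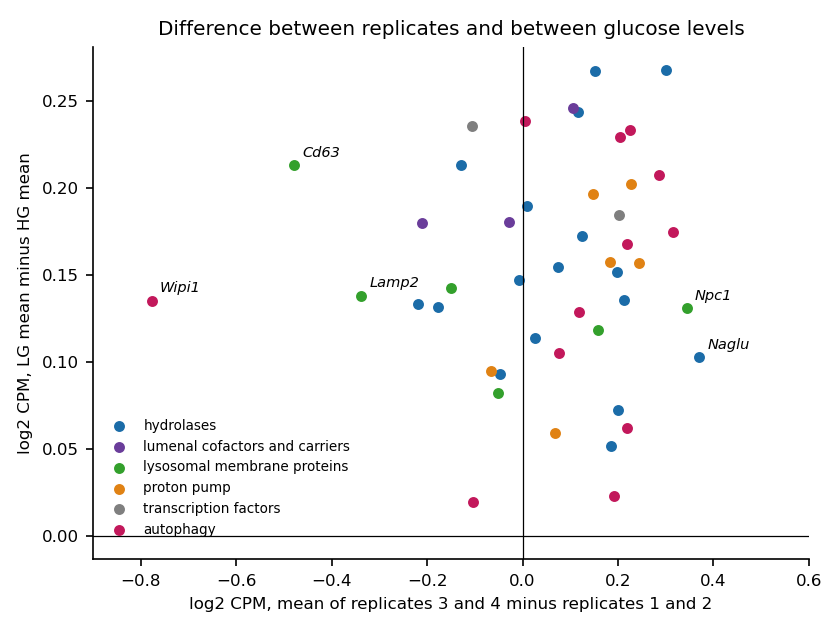
Difference between replicate numbers (mean log2 CPM of replicates 3 and 4 minus replicates 1 and 2, x axis) and between glucose groups (LG mean minus HG mean, y axis) for the 46 members, coloured by role. The points spread along the x axis from -0.78 for Wipi1 to 0.37 for Naglu and all lie above 0 on the y axis.

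GC content moved with the fold changes across all genes. For each library, deviations of log2 CPM from the gene's mean were correlated with GC content (Spearman). The values were -0.39, -0.20, -0.02 and 0.25 in HG replicates 1 to 4 and 0.11, -0.06, 0.27 and 0.12 in LG. HG replicate 1 thus lay farthest from 0. The members' pair 1 median was 0.31, and 0.25 with the GC and length trend removed. The median log2 fold change over all genes was -0.08 below 45% GC, -0.02 from 45% to 50%, 0.04 from 50% to 55% and 0.09 from 55% up. In the same ranges the members had medians of 0.09 (n = 5), 0.12 (n = 8), 0.15 (n = 21) and 0.21 (n = 12), above that of all genes in each. With the replicate block and offsets for GC content and length, 45 of 46 members were above 0, against 55.5% of all genes, the median was 0.14 and 0 members passed, against 0.661% of all genes. At an unadjusted p under 0.05, 24 members were then higher, against 7.5%, and 0 lower, against 5.75%. The lowest adjusted p was then 0.0947 by edgeR, for Ppt1, which encodes a thioesterase that strips palmitate from proteins. Ctsz was the 1 member below 0, at -0.01. Single members moved either way when the offsets were added to the block. Tfeb went from 0.23 to 0.14, Cd63 from 0.21 to 0.13, Grn from 0.25 to 0.18 and Ulk1 from 0.17 to 0.09. Lamp2 went from 0.14 to 0.29 and Atp6v1h from 0.09 to 0.27.

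**Figure D5:**
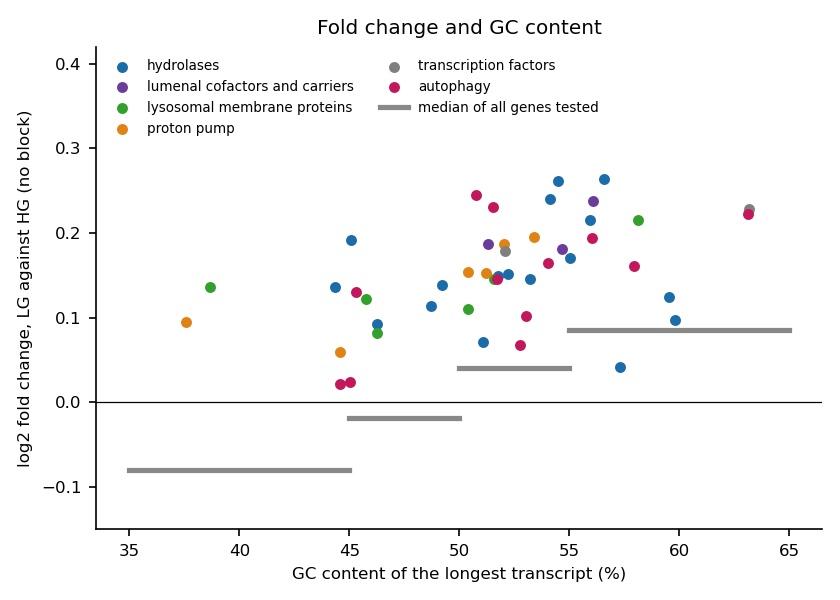
Log2 fold change of each member without the block (y axis) against the GC content of its longest transcript in percent (x axis), coloured by role. Grey bars are the median of all genes tested in 4 GC ranges, the outer ranges being open, and 45 of 46 points lie above the bar of their range.

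The wider pathway was read from 130 other genes, of which 124 were tested. Without the block 102 of 124 were above 0, against 51.4% of all genes, with a median of 0.09, and 0 passed without the block, with it, or with the offsets added. At an unadjusted p under 0.05 with the block, 26 were higher in LG, against 6.02% of all genes, and 2 lower, against 7.43%. Other hydrolases resembled the members, with 27 of 29 above 0 and a median of 0.16, as did other pump genes, with 13 of 14 and 0.13, and other membrane proteins, with 16 of 18 and 0.13. Genes that sort the enzymes to the lysosome (6 of 9, median 0.02), the other autophagy genes (26 of 34, median 0.04) and regulators around mTORC1 (11 of 17, median 0.05) lay nearer to the median of all genes. The medians of these roles were not tested against each other.

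By the rule for named genes, Gm2a (0.23), the activator protein that serves the enzyme of Hexa, Cln6 (0.23), which helps enzymes leave the endoplasmic reticulum, Tpcn1 (0.18), a lysosomal cation channel, Atp6v0e (0.21), a small V0 subunit, and Flcn (0.17), a regulator of Tfe3 and Tfeb, had the lowest p of their roles with the block. Each was higher in LG in 4 of 4 pairs. Among autophagy genes it was Rubcn, which encodes Rubicon, an inhibitor of autophagosome maturation. Rubcn was at 110, 131, 150 and 163 CPM in HG and at 136, 153, 170 and 199 CPM in LG, and its log2 fold change of 0.25 had an edgeR adjusted p of 0.0837 with the block. The 2 genes with an unadjusted p under 0.05 and lower estimates were Rb1cc1 (-0.26), which encodes the scaffold FIP200 of the Ulk1 complex, and Tax1bp1 (-0.19), a cargo receptor, and they are named after their values were seen. Neither had an unadjusted p under 0.05 with the GC and length offsets.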

How the data were processed

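The authors deposited raw counts per Ensembl gene, 1 column per library and not normalized. Per the submitters' processing notes, the build was mm10 and the tools included STAR, featureCounts, CASAVA 1.8.2 and DESeq2, listed without roles. Annotation, strand setting and handling of multiply mapped reads: not given in the sources used here. Per the labels' protocols, 100 ng of total RNA per library went into an mRNA kit and was read as pairs of 150 bp. GENCODE M21 (GRCm38) gave symbols for 52073 of 56980 IDs.

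The deposited counts were tested with edgeR 4.0.16 under R 4.3.3 (filterByExpr, 18905 genes kept, TMM scaling, quasi-likelihood test, Benjamini-Hochberg adjustment over all genes tested, threshold 0.05). Each SE was derived from the fold change and the square root of F. Values in CPM use TMM factors, log2 CPM a prior count of 2, and RPKM the union of exons. GC and length trends per library came from mgcv 1.9.3 and entered as offsets. DESeq2 1.42.0 and limma-voom 3.58.1 were alternatives. Pseudogene copies were sought with blastn 2.17.0 (95% identity over 150 bases). The tests were tried on simulated data with changes larger than those of the members. That trial cannot tell what the tests would detect at the members' sizes.

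Across genes, deviations from the group mean had r of 0.448 to 0.625 for HG and LG libraries with 1 number. For different numbers r was at most 0.419 (HG replicate 4 with LG replicate 3). The labels also give libraries of 1 number a shared preparation code, so the numbers were taken to pair the libraries. The codes do not tell numbers 1 and 2 apart. For these r was 0.571 and 0.625 within a number and 0.338 and 0.261 across numbers. No library repeats another (chi-square over degrees of freedom at least 19.5 within groups).

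Members described library by library were, in each role, the 2 with the lowest p with the block and the 1 with the highest RPKM, and any that passed. Other pathway genes and markers were named for the lowest p in their role or for passing, and 1 such gene is not reported here. Members and lists were chosen with earlier results of these data known.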

Additional observations from a re-analysis of the deposited data

Results flagged for a closer look

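Among 106 groups of 4 libraries (each member in HG and in LG, and the sums by role), 2 held a library far from the other 3, where chance alone gives about 5.3 at 1 in 20. The summed CPM of all members was lowest in HG replicate 1, at 4766, with the other HG libraries between 5260 and 5327. Atg5 was highest in the same library, at 5.13 log2 CPM, with the other HG libraries between 5.016 and 5.023.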

How the results depend on the processing

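Of the members, 46 stayed above 0 in the fit with the replicate block, with DESeq2 size factors, upper quartile scaling, DESeq2, limma-voom, other filters, the preparation block and summed preparations, and 45 with GC and length offsets, with or without the block. Leaving out 1 library or pair gave 43 to 46, with 43 without HG replicate 1 and 44 without LG replicate 1, LG replicate 3 or pair 1, and leaving out the preparation of replicates 1 and 2 gave 43 and a median of 0.10. The median of the members ran from 0.11 to 0.19 when 1 library or pair was left out. The count of members past the threshold was 0 in every fit run but that with the replicate block and without pair 4, where it was 1 (Gabarap), so leaving out 1 library or pair gave 0 to 1. Over all genes, 0 passed without the block, 79 with it, 125 with the block and offsets, 17 with summed preparations, 7 by DESeq2 and 1 with the preparation block, and with the block 0, 6, 39 and 148 without pairs 2, 1, 3 and 4. The replicate block changed no call of a member. Values turned in sign for 7 members, whose main values lay between 0.02 and 0.15. Ctsz was at -0.00897 with block and offsets, -0.0129 with offsets alone and -0.118 without the preparation of replicates 1 and 2, an alternative chosen after seeing the data. With 1 library left out it was at -0.0118 or above, and with 1 pair left out of the blocked fit from -0.0273 to 0.127. Without that preparation Atg7 was at -0.023 and Atg5 at -0.029. With 1 library left out, values ran from -0.0149 to 0.172 for Naglu, -0.0228 to 0.148 for Gabarapl1, -0.0238 to 0.0802 for Becn1, -0.0545 to 0.288 for Wipi1 and -0.0223 to 0.0524 for Atg5, and with 1 pair left out of the blocked fit Gabarapl1 reached -0.00301 and Becn1 -0.0173. Among the other genes, the median of autophagy genes was 0.067 with block and offsets and 0.066 with offsets alone, and ran from 0.0085 to 0.092 with 1 library or pair left out, that of regulators from 0.015 to 0.058 with 1 library left out, and that of sorting genes from -0.0063 to 0.063. The median of the other lumenal genes was -0.0039 without the preparation of replicates 1 and 2. With the GC and length trend removed, the pair 4 median was -0.0096 for lumenal members and the pair 1 median 0.23 for the transcription factors. The cause of these shifts was not tested. The precision of counts is lowest for Tfeb, with 2255 counts over the 8 libraries.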

Other observations

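The proton pump can be built from alternative subunits, which these cultures expressed at unequal levels. Per length, the V0 subunit a was mainly Atp6v0a1, at 28.4 RPKM over the 8 libraries, against 14.7 RPKM for Atp6v0a2 and 0.990 RPKM for Tcirg1, the form known from osteoclasts. Subunit d was Atp6v0d1, at 103 RPKM, while Atp6v0d2 did not pass the filter on low counts. The same held for subunit B, with Atp6v1b2 at 48.9 RPKM and Atp6v1b1 below the filter. Of the small subunits, Atp6v0e2 was at 152 RPKM and Atp6v0e at 26.6 RPKM, and Atp6v1g1 was at 95.9 RPKM and Atp6v1g2, known from neurons, at 6.73 RPKM. Ctss and Acp5, hydrolase genes known from myeloid cells, did not pass the filter. These are levels over both groups and compare no condition.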
